A study of Mus musculus with 21 samples.

Results

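Interleukin-6 (IL-6), leukaemia inhibitory factor (LIF), interleukin-11 and oncostatin M form a family of cytokines that signal through a shared receptor chain, and 9 genes of this family are described here across all groups of the study. They were chosen by symbol in the deposited tables: the ligands Il6, Lif and Il11, the receptor chains Il6ra, Osmr, Lifr and Il6st, the transcription factor Stat3 and the feedback inhibitor Socs3. Each of the 9 symbols matched 1 of the 55573 genes of the count table. Of these 9 genes, 7 passed the filter on low counts that left 15432 genes for testing. Il6 and Lifr did not pass it and are described by their reads.

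The 21 RNA libraries come from 7 groups of 3, all grown in culture and all derived from the mouse breast cancer line E0771 marked with GFP. The groups were the untreated line E0771GFP (parental), E0771GFP with an empty vector, and E0771GFP with ZBTB18 overexpression. Another pair of groups carried ZBTB18 overexpression together with a doxycycline-inducible TGFBR2 (iTGFBR2) and were given doxycycline, at 1 mg/mL as the label states it, with either vehicle or TGF-β1 at 2 ng/mL. The last 2 groups, M11GFP (M11) and M12GFP (M12), are untreated E0771GFP derivatives taken from spontaneous metastases in the lung. The iTGFBR2 vehicle group therefore differs from the ZBTB18 overexpression group by the added receptor, by doxycycline and by being another derived line, and these cannot be told apart. Its Zbtb18 transcript was also lower, with the values given below. Whether a line was a clone, which promoter drove the constructs and whether replicates were separate cultures are not given in the sources used here, so p-values measure the spread between these libraries, which may be technical.

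In this family the receptor complex of a cytokine includes a particular chain: IL6RA for IL-6, OSMR for oncostatin M, LIFR for LIF and IL11RA for interleukin-11. The complex also includes gp130, the product of Il6st, whose associated JAK kinases phosphorylate STAT3. Phosphorylated STAT3 enters the nucleus and activates genes that include Socs3, whose protein binds gp130 and the JAK kinases and limits the signal. Tumour cells commonly express several of these chains, and transcript levels do not report the phosphorylation that carries the signal.

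The libraries held 24208564 to 90518866 counts. Zbtb18 stood at 113 ± 9.6 CPM (SD, n = 3) with ZBTB18 overexpression against 25.1 ± 0.91 with the empty vector. Tgfbr2 reached 588 ± 33 CPM in the iTGFBR2 vehicle group against 1.74 ± 0.25 with ZBTB18 overexpression alone. Both constructs thus matched their labels. The overexpression line was itself low in Tgfbr2, since empty vector libraries averaged 26.6 ± 0.44 CPM and parental libraries 13.8 ± 0.81. Tgfbr2 was 15.3-fold below the empty vector (edgeR adjusted p = 6.51e-17) and 7.93-fold below parental (adjusted p = 1.15e-14). The part of this low Tgfbr2 level in the results below was not tested. CPM here is the read count relative to the scaled library size, and transcripts of a construct were not separated from those of the mouse gene. Parental replicate 1 stood apart, since Gm42418, a gene overlapping ribosomal RNA sequence, took 14% of its counts and no more than 0.0918% of those of each other library. The luminal keratin Krt8 was high in every group (115 to 271 TPM as group means), whereas only 2 to 4 of 14 epithelial markers reached 1 TPM. Leukocyte-defining Ptprc and macrophage-defining Adgre1 had at most 14 reads in a group, while the summed level of 10 blood markers was 29.5 to 100 TPM in M12 and 7.1 to 11.8 TPM in the parental line, mostly Cd68. The summed level of 9 fibroblast markers was 249 to 358 TPM in M11 and 34.6 to 41.8 TPM in the parental line. Most of the M11 sum was Col3a1, at 279 ± 53 TPM against 13.3 ± 0.77 in the parental line. Pdgfra and Pdgfrb were also higher in M11 (27.3 and 11.3 against 16 and 7.07 TPM), and Col1a1 was lower (0.22 against 1.18). Col1a2, Dcn, Lum, Thy1 and Fap had at most 0.13 TPM in both groups. The part of these markers in the results below was not tested.

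Il11 was called in 0 of the 8 comparisons, and each of the 6 other tested genes in 3 or more of them. With ZBTB18 overexpression, Osmr and Stat3 rose and Socs3, Lif and Il6st fell against the empty vector, which is 2 genes higher and 3 lower, where 14.0% of all tested genes rose and 14.5% fell. Against the parental line only Stat3 rose and only Socs3 fell, with 29.9% and 31.8% of all genes called. In the iTGFBR2 vehicle group, Lif, Socs3, Il6ra, Stat3 and Il6st rose over ZBTB18 overexpression alone and 0 fell (background 19.5% higher and 19.3% lower); limma-voom called 1 lower, Osmr. With TGF-β1, 0 of the 7 were called in either direction in edgeR, where 1.26% of all genes rose and 0.654% fell. The count was also 0 at an unadjusted p under 0.05 and 0 with DESeq2 and limma-voom.

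Both metastasis lines had less Osmr transcript than the parental line. In M11, Osmr, Lif and Socs3 fell and Il6st rose, where 20.0% of all genes fell and 20.8% rose. In M12, Osmr, Il6ra and Socs3 fell and Il6st rose, with a background of 25.2% lower and 24.9% higher. Between the lines, Il6ra was higher and Lif lower in M11 than in M12 (17.7% and 17.8% of all genes). The empty vector line itself differed from the parental line, with Il6st and Stat3 higher and Osmr lower (28.9% and 29.0%). Several comparisons share their parental, overexpression or vehicle libraries, so they are not independent of each other.

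**Figure D1:**
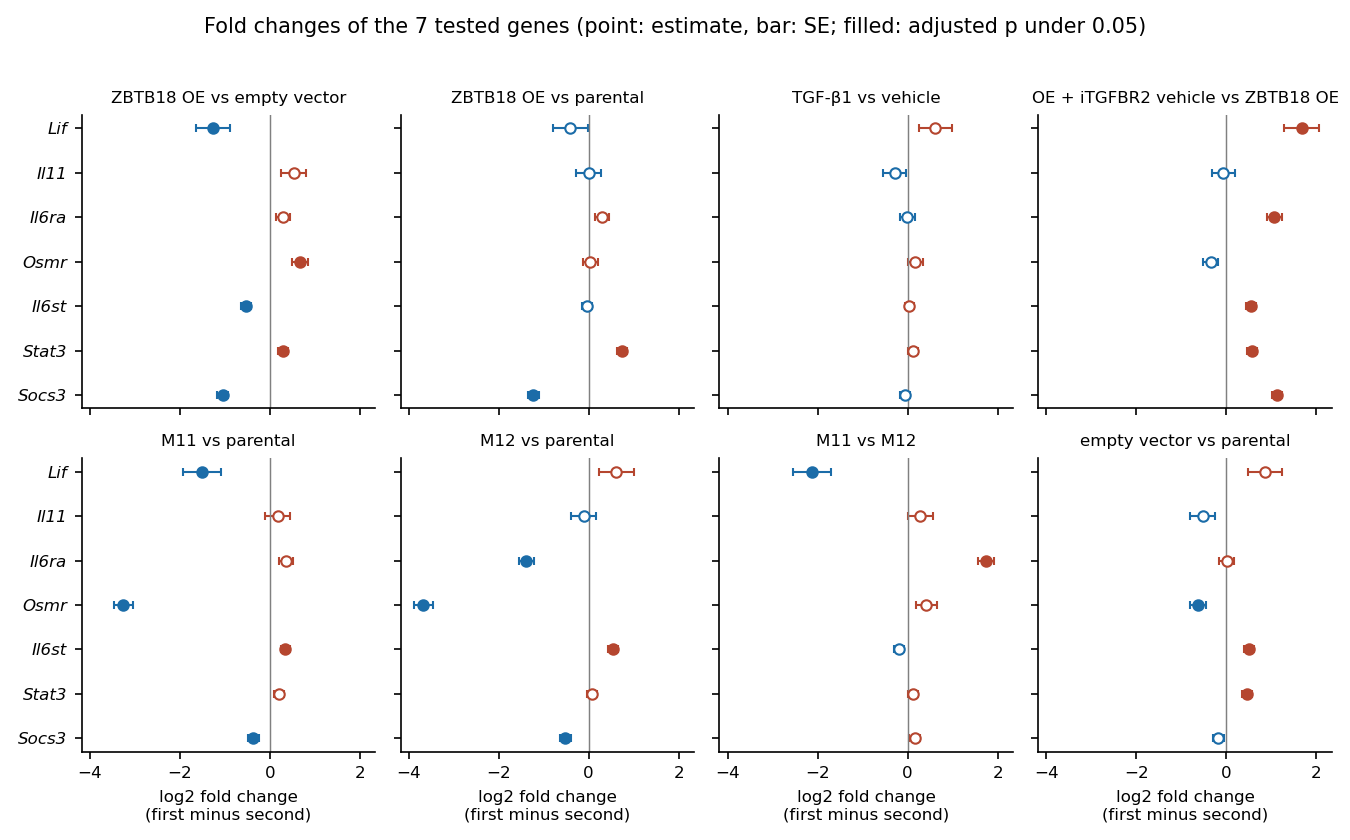
Log2 fold changes (x axis, first group minus second) of the 7 tested genes (y axis) in 8 comparisons; points are edgeR estimates, bars are SE, and filled points had an adjusted p under 0.05. Osmr lies at -3.25 and -3.67 in the metastasis lines, and no point is filled for TGF-β1 against vehicle.

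Fold changes in the 4 comparisons with the parental line depend on scaling. On the TPM scale the median gene was shifted upward by 0.14 to 0.31 on the log2 scale against the parental line, and by at most 0.041 in size in the other comparisons. The empty vector comparison, for example, had 4462 genes higher and 4482 lower in edgeR but 6795 higher and 1868 lower with limma on log2(TPM + 1). The same split went from 4614 and 4911 to 6970 and 2185 for ZBTB18 overexpression, from 3207 and 3081 to 4410 and 1287 for M11, and from 3847 and 3890 to 5556 and 1560 for M12. Small changes against the parental line are therefore given below with their TPM value where the call is lost.

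Levels were compared between genes per transcript length, in TPM. Stat3 had the highest TPM of the 9 genes in every group, from 33.8 ± 4.5 TPM in the parental line to 101 ± 10 with TGF-β1 (SD, n = 3). Socs3, Il6ra and Il6st followed, with group means of 5.61 to 41.8 TPM. Osmr, Lif and Il11 had group means of 0.307 to 4.68 TPM, and Lifr had the lowest level in every group.

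**Figure D2:**
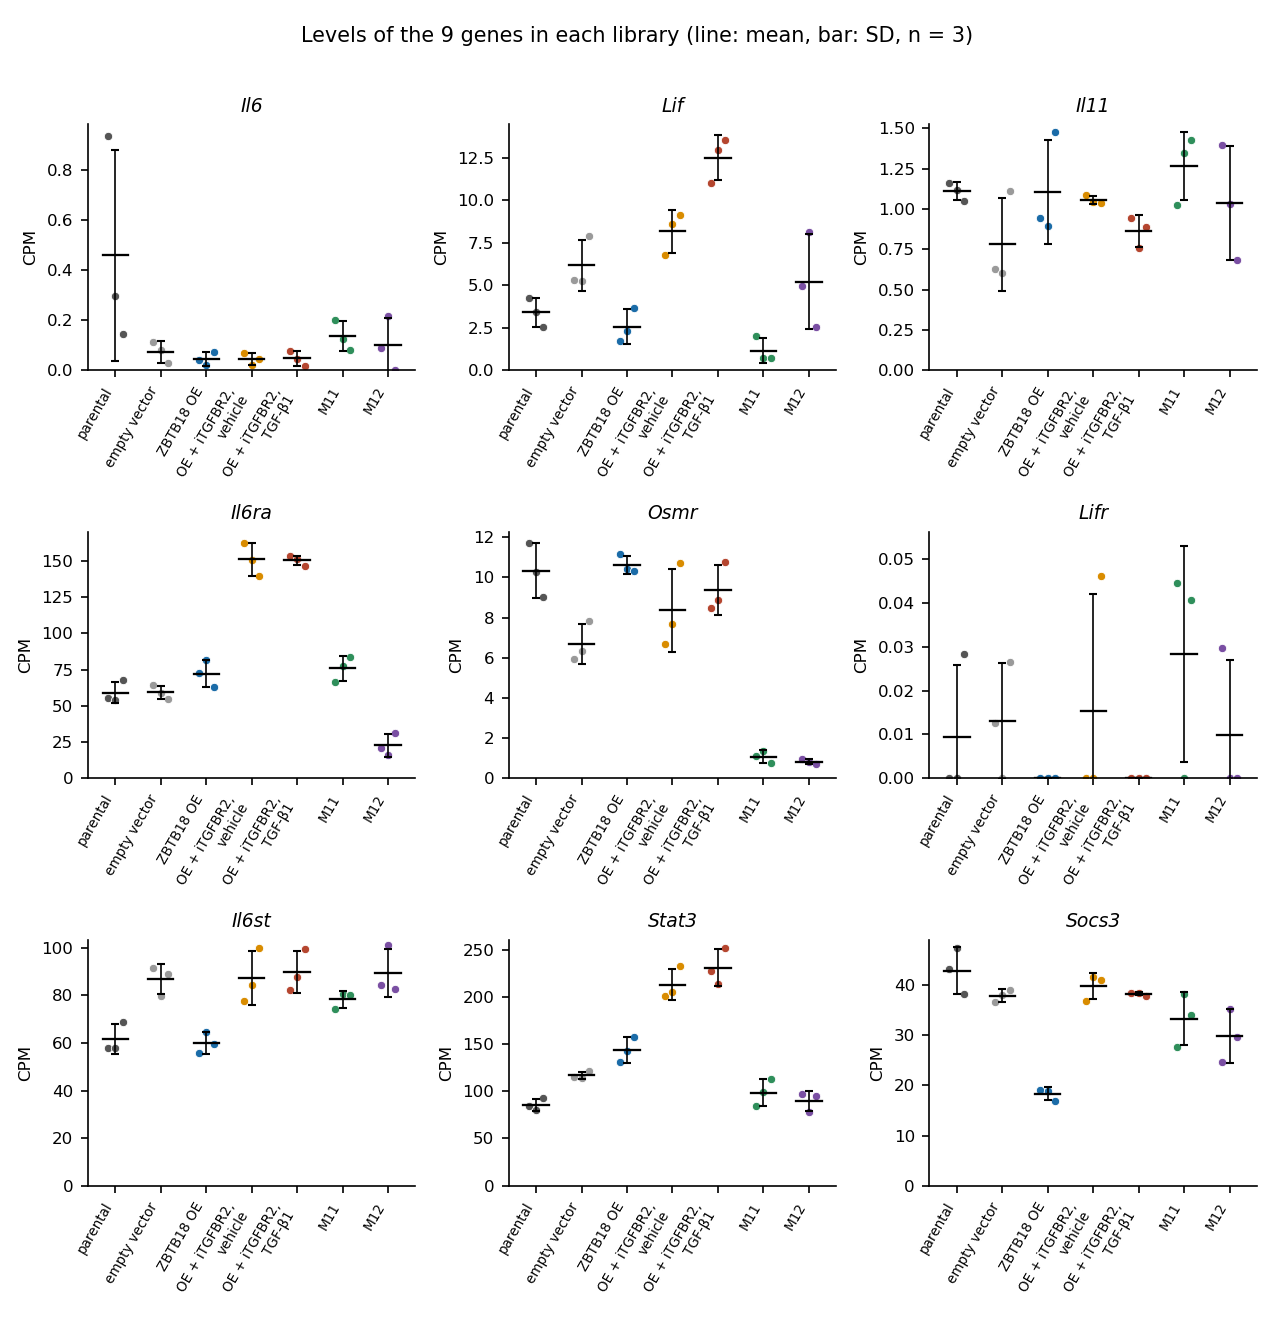
CPM (y axis, linear, from 0; scales differ between panels) of the 9 genes in each of the 21 libraries, by group (x axis); points are libraries, lines are means and bars are SD of 3 libraries, cut at 0. The 6 metastasis libraries lie between 0.706 and 1.35 CPM for Osmr, below all 15 others, and the 3 ZBTB18 overexpression libraries lie below all others for Socs3.

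Lif encodes leukaemia inhibitory factor and was the only tested ligand of the 3 with a call. Its gene (ENSMUSG00000034394.14) lies on chromosome 11, 4257557 to 4272514, plus strand, on build mm10. The parental libraries held 4.28, 3.4 and 2.53 CPM, the empty vector libraries 5.32, 5.28 and 7.93, and the ZBTB18 overexpression libraries 1.7, 2.28 and 3.68. Every overexpression library was below every empty vector library, while the overexpression and parental ranges overlapped. Lif fell by 1.26 on the log2 scale against the empty vector (SE 0.38, edgeR adjusted p = 0.0181), and by 0.41 against the parental line (SE 0.39, adjusted p = 0.376). The first call was lost without empty vector replicate 3 (adjusted p = 0.0805), overexpression replicate 1 (0.0841) or overexpression replicate 2 (0.0696).

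With iTGFBR2 and vehicle, Lif stood at 6.76, 8.59 and 9.15 CPM, above each overexpression library. The change was 1.67 on the log2 scale, 3.18-fold (SE 0.38, edgeR adjusted p = 0.002). TGF-β1 libraries held 11.1, 12.9 and 13.6 CPM and did not overlap the vehicle libraries. That difference of 0.62 (SE 0.36) did not pass the test across all genes (edgeR adjusted p = 0.525). It passed without the filter on low counts (adjusted p = 0.0211) and in a fit of the 6 libraries alone (0.0133), and its adjusted p ranged from 0.0133 to 0.781 over 16 alternatives.

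In the metastasis lines Lif went different ways. M11 libraries held 1.98, 0.72 and 0.692 CPM, all below the parental range, and M12 libraries held 4.93, 8.14 and 2.56, which overlapped it. Lif fell by 1.51 in M11 (SE 0.43, edgeR adjusted p = 0.00934) and differed from the parental line by 0.62 in M12 (SE 0.38, adjusted p = 0.192). The direct difference between the lines, M11 minus M12, was -2.12 (SE 0.42, adjusted p = 0.000732), with no overlap. Ordered by mean, Lif went from TGF-β1 (12.5 CPM) through vehicle, empty vector, M12, parental and overexpression to M11 (1.13 CPM), and only the last step between neighbours passed the test (adjusted p = 0.0403).

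Lif, Socs3 and Il6st each fell with overexpression against the empty vector and rose with vehicle over overexpression alone. Bases before the RefSeq starts of Lif, here, and of Socs3, with its values, are printed because each holds a motif match. They come from RefSeq's promoter table on GRCm38.p6, the assembly of mm10. For Lif, the stretch chr11:4257318-4257556 on the plus strand ends before the first base of the annotated gene, and the capitals mark a match to the AP-1 motif TGANTCA, searched on both strands.
Lif: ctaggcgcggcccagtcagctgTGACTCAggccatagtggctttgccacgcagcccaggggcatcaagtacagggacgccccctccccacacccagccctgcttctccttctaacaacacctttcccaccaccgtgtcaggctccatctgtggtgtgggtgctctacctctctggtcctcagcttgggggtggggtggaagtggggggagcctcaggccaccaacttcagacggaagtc
The match TGACTCA lies 228 to 222 bases before the RefSeq start. Of 32851 RefSeq promoters, 6.75% hold such a match in the 250 bases before their start. In the same 250 bases Lif also holds CATCTG, the other strand of the E-box CAGATG, which 14.4% of promoters hold, and no TTCNNNGAA.

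Il6 was close to the floor of detection in every group. The gene (ENSMUSG00000025746.11; chromosome 5, 30013114 to 30019981, plus strand) encodes the family's founding cytokine. The parental libraries held 33, 13 and 5 reads, and the 6 other groups held 7 to 15 reads each over their 3 libraries. Of the 51 parental reads, 33 came from replicate 1, the library with the high Gm42418 share, and the parental range in CPM overlapped that of M11 and M12. The ratio of reads per scaled library, parental over ZBTB18 overexpression, was 9.86 with a 95% conditional binomial interval of 4.45 to 25.8. It was 5.29 (2.83 to 10.6) over the empty vector, 3.01 (1.67 to 5.77) over M11 and 4.31 (2.31 to 8.63) over M12. These intervals cover counting error only. Without the filter edgeR called Il6 lower than parental in all 4 of those groups, with adjusted p from 7.19e-06 to 0.0314.

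Il11 encodes interleukin-11 and did not pass the test in any of the 8 comparisons. It lies on chromosome 7, 4772373 to 4782859, minus strand (ENSMUSG00000004371.15). Its 21 libraries ranged from 0.601 to 1.48 CPM, with group means of 0.779 CPM (empty vector) to 1.27 CPM (M11). The largest differences in size were 0.53 (SE 0.27, adjusted p = 0.161) for overexpression against the empty vector and -0.53 (SE 0.28, adjusted p = 0.109) for the empty vector against parental. Without empty vector replicate 3, both passed the threshold in edgeR (adjusted p = 0.0386 and 0.0214).

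Osmr, which encodes the oncostatin M receptor chain, had the largest fold changes of the 7 genes, all in the metastasis lines. The gene (ENSMUSG00000022146.12) lies on chromosome 15, 6813577 to 6874969, minus strand. Parental libraries held 11.7, 10.3 and 9 CPM, M11 libraries 1.11, 1.35 and 0.733, and M12 libraries 0.921, 0.816 and 0.706. No metastasis library came near any other library, since the lowest of the other 15 held 5.93 CPM. Because RNA was taken from whole cultures, fewer cells with a transcript and less transcript per cell cannot be told apart, here and in the results that follow. Osmr fell by 3.25 in M11, 9.53-fold (SE 0.21, edgeR adjusted p = 9.08e-11), and by 3.67 in M12, 12.7-fold (SE 0.21, adjusted p = 1.2e-11). Both calls held in all 16 alternatives, although log2(TPM + 1), which compresses low levels, gave the smallest changes of -1.40 and -1.55. The lines themselves differed by 0.42 (SE 0.24, adjusted p = 0.19) with overlapping libraries.

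The genes beside Osmr changed by less. The next 3 tested genes on each side were taken. Fyb, Gm7666 and Rictor lie 251, 190 and 90 kb away between midpoints, and Gm49207, Gdnf and Wdr70 lie 917, 980 and 1142 kb away. These 6 genes had log2 changes between -0.69 and 0.62 in M11 and between -0.71 and 0.31 in M12. Gm7666, Gm49207 and Wdr70 were called lower in both lines, Rictor was called higher in both and Fyb higher in M11. Of 608 other tested genes on chromosome 15, 24.5% fell in M11 and 29.8% in M12.

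Among the other lines Osmr varied less. Empty vector libraries held 5.93, 6.31 and 7.82 CPM and overexpression libraries 11.2, 10.4 and 10.3, without overlap. The rise with ZBTB18 overexpression was 0.67 on the log2 scale (SE 0.17, edgeR adjusted p = 0.00579), and it was lost on log2(TPM + 0.1) at 0.55 (adjusted p = 0.148). On chromosome 15 as a whole, 23.5% of the other genes rose and 9.38% fell in that comparison. Against the parental line the overexpression libraries differed by 0.039 (SE 0.17, adjusted p = 0.857), and the empty vector line lay 0.63 lower (SE 0.18, adjusted p = 0.00432), a call lost on log2(TPM + 1) at -0.098 (adjusted p = 0.603). The iTGFBR2 groups held 6.7 to 10.8 CPM, overlapping the overexpression libraries. In the order of means, from overexpression (10.6) through parental, TGF-β1, vehicle and empty vector (6.69), no neighbouring step passed the test until the step down to M11 (2.62, adjusted p = 5.13e-09).

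Il6ra encodes the IL-6-binding chain and separated the iTGFBR2 groups and M12 from all others. It lies on chromosome 3, 89864059 to 89913196, minus strand (ENSMUSG00000027947.11), and overlaps the antisense gene Gm42809, which had 320 reads in all libraries against 93636 for Il6ra. The ZBTB18 overexpression libraries held 72.4, 81.6 and 62.8 CPM, the vehicle libraries 163, 151 and 140, and the TGF-β1 libraries 153, 152 and 147. All 6 iTGFBR2 libraries were above all 15 others, and the vehicle and TGF-β1 ranges overlapped. The rise from overexpression to vehicle was 1.07, 2.09-fold (SE 0.16, edgeR adjusted p = 3.78e-05), and TGF-β1 then differed from vehicle by -0.006 (SE 0.16, adjusted p = 1).

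Parental libraries held 55.5, 54.1 and 67.6 CPM of Il6ra, M11 libraries 66.6, 77.8 and 83.5, and M12 libraries 20.9, 15.8 and 31.2. M12 lay below every other library of the study, whereas M11 overlapped the parental line. Il6ra fell by 1.38 in M12, 2.61-fold (SE 0.17, edgeR adjusted p = 1.29e-06), and differed by 0.36 in M11 (SE 0.16, adjusted p = 0.0852). M11 minus M12 was 1.75 (SE 0.17, adjusted p = 2.06e-07). Overexpression, parental and empty vector means were 72.3, 59.1 and 59.1 CPM, and no step between them passed the test (adjusted p = 0.129 and 0.991). On log2(TPM + 1), where the parental shift applies, Il6ra passed as higher than parental in M11 (0.55, adjusted p = 0.0233) and with overexpression (0.62, adjusted p = 0.00617).

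Lifr, the LIF-binding chain, was essentially unread. Its gene (ENSMUSG00000054263.12; chromosome 15, 7090614 to 7197489, plus strand) had 9 reads in the 21 libraries together. No group had more than 3 reads. The ZBTB18 overexpression and TGF-β1 groups had 0 reads, which allows up to 0.0194 and 0.0166 CPM, the level of 3 counts over the group. Differences between groups were not detectable at this depth.

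Il6st, which encodes gp130, was present in every group and moved by modest amounts. It lies on chromosome 13, 112464070 to 112510086, plus strand (ENSMUSG00000021756.12). Parental libraries held 58, 57.7 and 68.7 CPM, empty vector libraries 91.6, 79.5 and 89.2, and overexpression libraries 55.7, 64.6 and 59.6. The empty vector libraries lay above all libraries of both other groups, which overlapped each other. Against the empty vector, Il6st fell by 0.53 with ZBTB18 overexpression (SE 0.11, edgeR adjusted p = 0.000566), and against the parental line it differed by -0.035 (SE 0.11, adjusted p = 0.789), a sign that turned to 0.32 on log2(TPM + 1). The empty vector line was itself 0.50 above parental (SE 0.11, adjusted p = 0.000469).

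Chromosome 13 moved in the direction of Il6st for ZBTB18 overexpression against the empty vector. Of 602 other tested genes there, 39.5% fell and 3.16% rose in that comparison, with a median of -0.29. Against the parental line 38.7% of them fell and 23.8% rose with overexpression (median -0.19), where Il6st differed by only -0.035. In the vehicle comparison, where Il6st rose by 0.54 (SE 0.11, edgeR adjusted p = 0.000348), 18.8% of them rose and 18.4% fell. Whether the fall of Il6st belongs to that of its chromosome was not tested.

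Vehicle libraries held 77.5, 84.5 and 99.9 CPM of Il6st and TGF-β1 libraries 82.1, 87.7 and 99.7, ranges that nearly coincide (difference 0.042, SE 0.1, adjusted p = 0.954). M11 held 74.3, 80.5 and 80.1 CPM and M12 84.5, 101 and 82.5, all above the parental libraries. Il6st rose by 0.35 in M11 (SE 0.11, edgeR adjusted p = 0.0117) and by 0.54 in M12 (SE 0.11, adjusted p = 0.00022). The M11 call was lost without parental replicate 1 (adjusted p = 0.0536) or replicate 2 (0.061). From the highest mean, TGF-β1 at 89.8 CPM, down through M12, vehicle and empty vector to M11 at 78.3, no step between neighbours passed the test.

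Stat3 encodes the family's main transcription factor. It lies on chromosome 11, 100885098 to 100939540, minus strand (ENSMUSG00000004040.16), and its ends overlap Stat5a on the other strand, which had 19985 reads in all against 152111 for Stat3; whether counting used strand is not given in the sources used here. Parental libraries held 83.9, 80.3 and 92.9 CPM, empty vector 115, 114 and 121, and ZBTB18 overexpression 131, 143 and 158. These 3 groups did not overlap. Stat3 rose with overexpression by 0.75 against parental, 1.68-fold (SE 0.11, edgeR adjusted p = 4.9e-06), and by 0.30 against the empty vector (SE 0.11, adjusted p = 0.04). The latter call was lost on both TPM scales and in 5 of 6 fits without a library, with adjusted p of 0.00411 to 0.186 over all alternatives.

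The iTGFBR2 vehicle libraries held 201, 206 and 232 CPM of Stat3, above every overexpression library, a rise of 0.57 (SE 0.11, edgeR adjusted p = 0.000237). TGF-β1 libraries held 228, 214 and 252 and overlapped vehicle (0.12, SE 0.11, adjusted p = 0.75). M11 (84, 98.8 and 113 CPM) and M12 (97.4, 78.1 and 95.1 CPM) overlapped the parental line and did not pass the test (adjusted p = 0.141 and 0.599). The M11 difference of 0.20 passed on log2(TPM + 1) at 0.42 (adjusted p = 0.0206).

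Socs3, the feedback inhibitor, had the lowest adjusted p of the 7 genes for ZBTB18 overexpression against the empty vector. It lies on chromosome 11, 117966079 to 117970047, minus strand (ENSMUSG00000053113.3). Parental libraries held 43.2, 47.5 and 38.2 CPM, empty vector 36.6, 38 and 39.2, and overexpression 19.2, 19 and 16.8. The overexpression libraries were the 3 lowest of all 21. Socs3 fell by 1.05 against the empty vector, 2.07-fold (SE 0.12, edgeR adjusted p = 8.76e-07), and by 1.23 against parental, 2.34-fold (SE 0.12, adjusted p = 2.91e-08). Both calls held in all 16 alternatives.

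With iTGFBR2 and vehicle, Socs3 was back in the range of the control lines, at 36.9, 41.7 and 41 CPM. It rose by 1.12 over overexpression alone (SE 0.12, edgeR adjusted p = 2.31e-07), and no library of either group overlapped. TGF-β1 libraries held 38.5, 38.4 and 37.9 CPM and differed from vehicle by -0.059 (SE 0.12, adjusted p = 0.929). Between parental (42.9), vehicle, TGF-β1 and empty vector (37.9), no step between neighbours passed the test.

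M11 held 27.7, 38.3 and 34.1 CPM of Socs3 and M12 24.6, 35.3 and 29.6. M11 overlapped the parental libraries by a narrow margin and M12 did not. Socs3 fell by 0.37 in M11 (SE 0.12, edgeR adjusted p = 0.0171) and by 0.52 in M12 (SE 0.12, adjusted p = 0.000908). On log2(TPM + 1), where the median gene lies 0.14 and 0.17 above parental, the values were -0.16 (adjusted p = 0.368) and -0.25 (adjusted p = 0.121). The M11 call was also lost without parental replicate 2 (adjusted p = 0.087), without M11 replicate 1 (0.123) and in the fit of 6 libraries (0.079).

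Among the RefSeq promoters of the 9 genes, that of Socs3 alone held a match to the STAT motif TTCNNNGAA. That motif is its own complement on the other strand, and 7.02% of the 32851 RefSeq promoters hold it in the 250 bases before their start. The stretch shown is chr11:117969452-117969616 on the minus strand of GRCm38.p6, from RefSeq, with the match in capitals. It lies before the start of the protein-coding Socs3 transcript (117969186 in GENCODE vM21) but inside the gene's span, in an intron of a non-coding transcript that starts at 117970047. The bases nearer the RefSeq start overlap an exon of another non-coding transcript and are not printed.
Socs3: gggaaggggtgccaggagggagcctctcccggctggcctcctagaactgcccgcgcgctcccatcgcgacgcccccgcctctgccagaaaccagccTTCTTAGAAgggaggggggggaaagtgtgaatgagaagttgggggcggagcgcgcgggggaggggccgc
The match TTCTTAGAA lies 154 to 146 bases before the RefSeq start, and so within the annotated gene. The ZBTB18 motif ACATCTG, which contains the E-box letters CATCTG and which 3.71% of promoters hold, had no match on either strand in these windows for any of the 9 genes. AP-1 matches were also present for Il6 and for an alternative start of Il11. A match is a description of letters and not of a bound site.

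The other genes of the pathway were followed as lists. Of 8 further ligands and ligand partners, 5 were tested. Clcf1, which encodes cardiotrophin-like cytokine, stood at 31 ± 4.7 CPM in the parental line, 24.4 ± 2.3 with the empty vector and 31.7 ± 0.82 with ZBTB18 overexpression (SD, n = 3). It held 24.8 ± 0.8 CPM with vehicle and 31.4 ± 2.5 with TGF-β1, and in CPM was highest in M11 (47.9 ± 7.6) and M12 (38.2 ± 0.64). In TPM the M12 libraries held 20.8, 22 and 22.2, below every overexpression library (22.6 to 25.8) and every TGF-β1 library (23.4 to 26.9). Clcf1 rose by 0.38 with overexpression against the empty vector (edgeR adjusted p = 0.0124), by 0.63 in M11 (adjusted p = 8.83e-05) and by 0.30 in M12 against parental (adjusted p = 0.0258). With vehicle it fell by 0.36 against overexpression alone (adjusted p = 0.0131).

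Osm, the ligand of Osmr, was read in M11. It had 0 reads in the parental and ZBTB18 overexpression groups, 1 with the empty vector, 5 with vehicle, 8 with TGF-β1, 7 in M12 and 54 in M11. The M11 libraries held 0.557, 0.595 and 0.407 CPM, above all 18 others. Measured against 3 counts over the parental group, the pooled M11 level was 20.3-fold higher, a ratio that leaves out the counting error of the 54 M11 reads. Osm passed the filter on low counts through its M11 libraries, since no library of another group held more than 5 reads. It was thus tested because it is high in M11, and its edgeR adjusted p of 7.41e-05 against parental is not separate support. M12, at 7 reads, was called at an adjusted p of 0.0474 and was not called with the replicate number as a block. Osm lies next to Lif among the tested genes of chromosome 11, with their midpoints 26 kb apart, and in M11 Osm rose while Lif fell.

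Of 6 further receptor and shedding genes 5 were tested, and in each metastasis line 2 fell (Cntfr and Il11ra1) and 1 rose (Adam17) against parental. Of all genes, 20.0% fell and 20.8% rose in M11, and 25.2% and 24.9% in M12. In the empty vector line Cntfr and Il11ra1 also fell against parental, and Adam17 and Adam10 rose (29.0% and 28.9% of all genes). With ZBTB18 overexpression Cntfr fell against parental, and Adam17 and Adam10 rose (31.8% and 29.9%). Cntfr, the receptor chain for ciliary neurotrophic factor, held 3.28, 2.12 and 2.33 CPM in the parental libraries, 1.19, 1.28 and 1.66 with the empty vector and at most 0.594 CPM in all 15 libraries of the other groups. Its change was -3.38 with ZBTB18 overexpression against the empty vector (edgeR adjusted p = 1e-06), -4.52 in M11 (adjusted p = 3.1e-08) and -2.74 in M12 (adjusted p = 1.09e-06) against parental. Il11ra1, the interleukin-11 receptor chain, went from 8.91 ± 0.3 CPM in the parental line to 5.36 ± 0.38 in M11 and 5.27 ± 0.57 in M12 (SD, n = 3), changes of -0.73 and -0.76 (adjusted p = 1.9e-05 and 7.47e-06). Adam17, which encodes a protease that sheds the IL-6 receptor from the cell surface, rose by 0.37 in M11 (adjusted p = 0.00227) and by 0.93 in M12 (adjusted p = 3.19e-08). Against parental it also rose by 0.82 with the empty vector (edgeR adjusted p = 3.73e-07) and by 0.49 with overexpression (adjusted p = 7.86e-05).

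**Figure D3:**
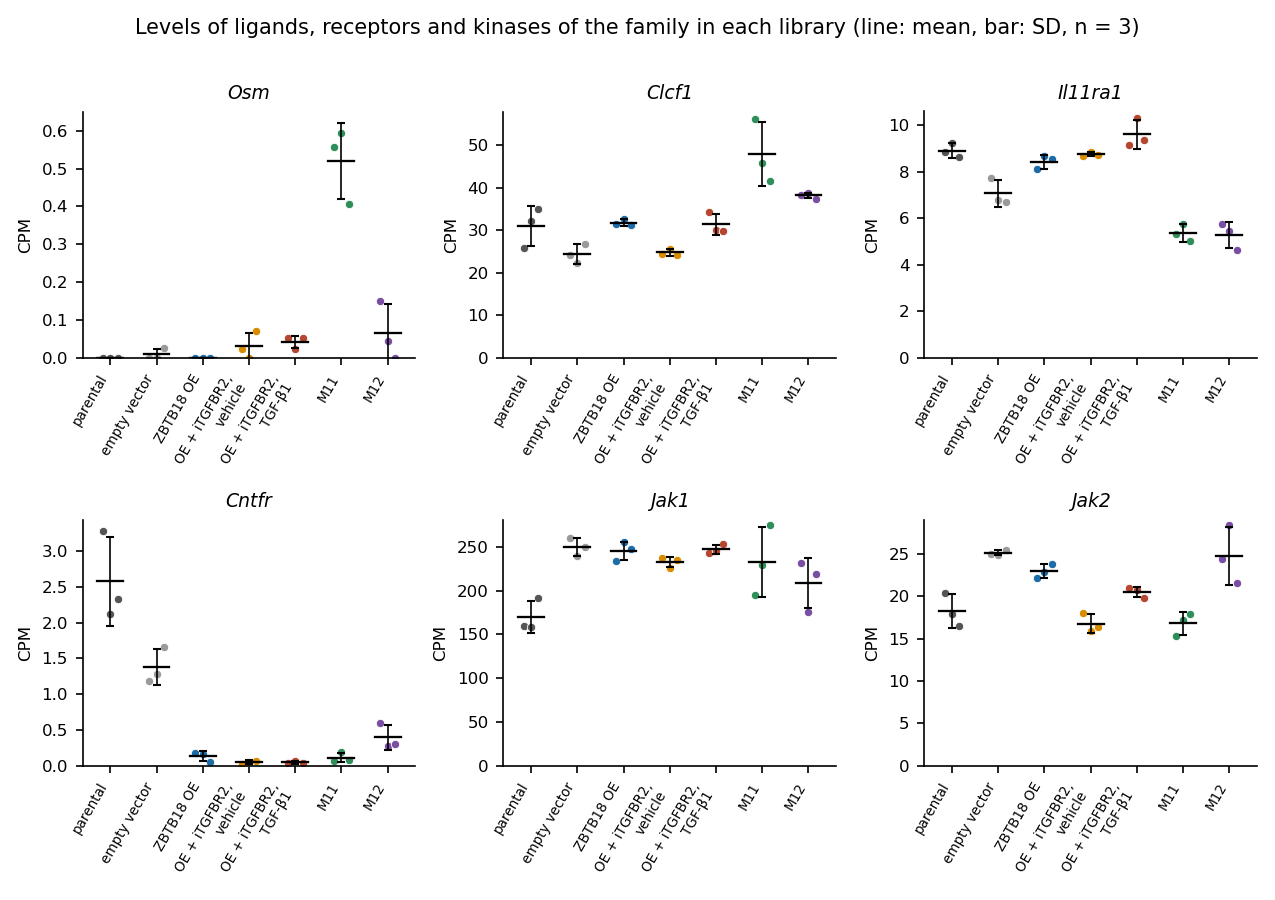
CPM (y axis, linear, from 0; scales differ between panels) of the ligands Osm and Clcf1, the receptor chains Il11ra1 and Cntfr and the kinases Jak1 and Jak2 in each library, by group (x axis); points are libraries, lines are means and bars are SD of 3 libraries. Osm is highest in the 3 M11 libraries and Cntfr in the 3 parental ones.

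Of 16 kinases, transducers and inhibitors besides Stat3 and Socs3, 14 were tested. Jak1, the kinase most tied to gp130, was lowest in the parental line (170 ± 19 CPM against 208 to 250 in the other groups), and it rose by 0.46 in M11 (edgeR adjusted p = 0.002). With ZBTB18 overexpression against the empty vector, Socs1 rose and Ptpn2, Stat5b and Jak3 fell, by 0.78, 0.73 and 0.70 (adjusted p = 5.96e-07, 3.45e-07 and 0.000149), 1 higher and 3 lower of the 14 beside 14.0% and 14.5% of all genes. The higher count was 0 in 8 of 16 alternatives. Ptpn2 and Ptpn6 encode phosphatases that act on JAK and STAT proteins. Ptpn6 fell by 1.05 in M11 and by 1.00 in M12 (adjusted p = 3.43e-06 and 3.9e-06). Against parental it also fell by 0.67 with the empty vector and by 0.89 with overexpression (edgeR adjusted p = 0.000292 and 1.12e-05). For TGF-β1 against vehicle edgeR called 0 of the 14, where 1.26% of all genes rose and 0.654% fell. At an unadjusted p under 0.05, 2 were higher and 2 lower, and DESeq2 called 1 higher and 2 lower. The shares of all genes in those settings are not given here. With the replicate number as a block, Jak3 was called (0.43, adjusted p = 0.0484).

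A list of 22 genes known to be induced by STAT3 in various tissues, was followed too, and 20 of them were tested. With ZBTB18 overexpression against the empty vector, 0 rose and 7 fell (Lcn2, Bcl3, Fos, Junb, Klf4, Cebpd and Hif1a), where 14.0% of all genes rose and 14.5% fell, with a list median of -0.36 beside 0.0064 for all genes. Over the alternatives, DESeq2 among them, 4 to 11 fell and 0 rose, as 0 rose at an unadjusted p under 0.05. Leaving out any library of the comparison left only 4 or 5 lower, with 4 without empty vector replicate 3. Bcl3, an inhibitor-of-NF-κB family protein, went from 10.3, 11.6 and 12.6 CPM with the empty vector to 2.65, 3.55 and 4.69 (-1.66, edgeR adjusted p = 0.000369). Against the parental line, the empty vector line had 9 of the 20 higher and 1 lower (28.9% and 29.0% of all genes), and overexpression gave 5 higher and 4 lower (29.9% and 31.8%). On log2(TPM + 1), where the parental shift applies, the counts were 12 and 0 for the empty vector and 9 and 0 for overexpression. The lower count with overexpression also reached 0 with a library left out. Many genes of this list also answer to other pathways.

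In the iTGFBR2 vehicle group 9 of the 20 rose and 3 fell over overexpression alone, where 19.5% of all genes rose and 19.3% fell, with a list median of 0.29. The largest changes were those of Lcn2, Saa3 and Icam1, genes of the acute-phase and inflammatory response, at 5.45, 3.44 and 3.28 (edgeR adjusted p = 0.00112, 0.00117 and 0.00455). Their libraries were far apart: Lcn2 held 13.5, 35.3 and 113 CPM with vehicle and 7.5, 19 and 66.3 with TGF-β1, against 0.464, 1.43 and 1.79 with overexpression alone. Leaving out any of the 6 libraries left 9 or 10 genes higher and 2 to 4 lower. TGF-β1 changed 1 of the 20, Bcl6, a repressor of transcription, by 0.47 (adjusted p = 0.0294), where 1.26% of all genes rose and 0.654% fell. That count of 1 ranged from 0 to 3 over 16 alternatives and was 0 on both TPM scales and without TGF-β1 replicate 1, 2 or 3 or vehicle replicate 1 or 2. With the replicate number as a block, Timp1, an inhibitor of matrix proteases, was called too (0.61, adjusted p = 0.032).

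**Figure D4:**
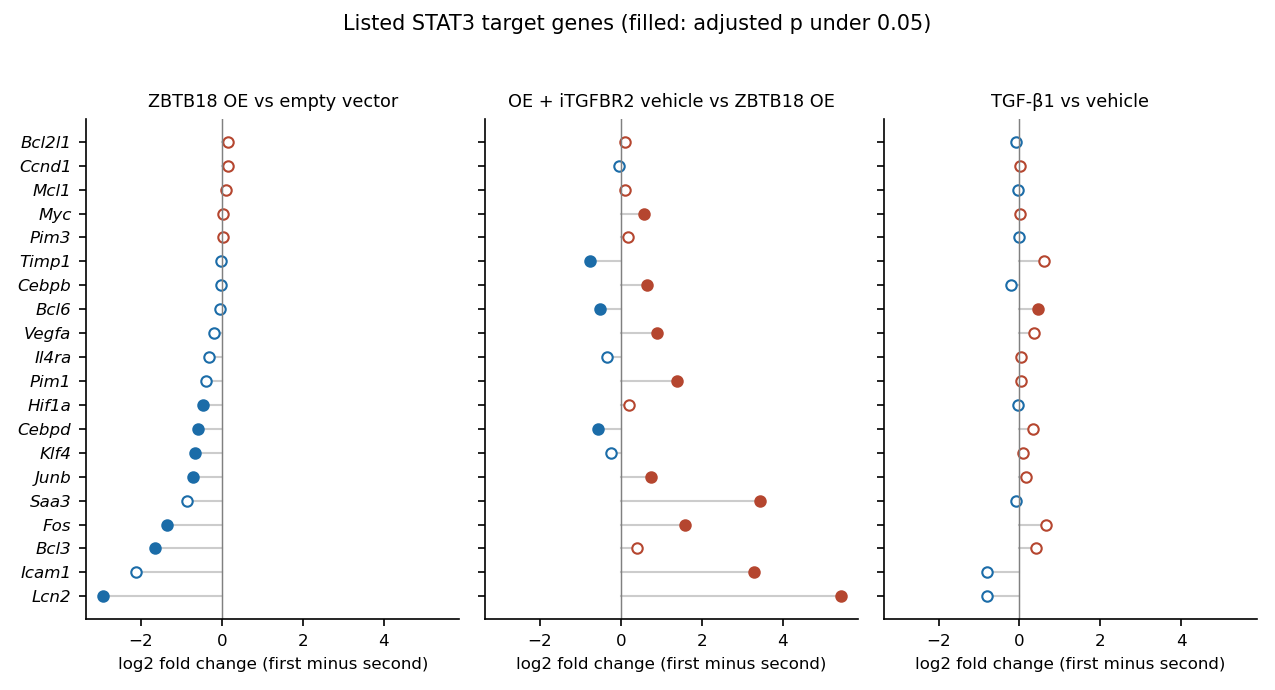
Log2 fold changes (x axis, first group minus second) of the 20 tested genes of the STAT3 target list (y axis, in order of the first panel) in 3 comparisons; filled points had an edgeR adjusted p under 0.05. In the first panel 7 points are filled and all lie below 0, in the second 9 lie above 0 and 3 below, and in the third 1 is filled.

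In M11, 5 of the 20 were higher and 4 lower than parental, shares near the 20.8% and 20.0% of all genes. M12 had 7 higher and 2 lower, where 24.9% and 25.2% of all genes were called. Over the alternatives M11 had 3 to 5 higher and 2 to 6 lower, and M12 had 4 to 10 higher and 1 to 3 lower. Il4ra, an interleukin-4 receptor chain, rose in both (1.19 and 0.87, edgeR adjusted p = 1.22e-06 and 3.68e-05). It was also higher than parental with the empty vector (1.21, adjusted p = 9.62e-07) and with overexpression (0.89, adjusted p = 2.08e-05). Klf4, a zinc finger transcription factor, fell in both metastasis lines (-0.96 and -1.66, adjusted p = 0.000656 and 9.38e-07). Klf4 was also called lower than parental with overexpression.

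Genes with the most similar profiles were found by correlation of log2 CPM over the 21 libraries, which fall into 7 groups, so that a high r mostly reflects shared group levels. Among about 9971 ranked genes, Eif2ak3 and Pgm1 were nearest to Stat3 (r = 0.986 and 0.98), Adipor2 and Zbtb4 to Il6ra (0.968 and 0.961), and Slc29a1 and Serpina11 to Osmr (0.952 and 0.951). For Lif the nearest were Osgin2 and Slc31a1 (0.882 and 0.872), for Il6st Ell2 and Gdpd5 (0.905 and 0.881), and for Socs3 Stard5 and Tor2a (0.896 and 0.893). Il11, which varied little, had no gene above 0.688 (Slc25a20, then Nlgn2 at 0.621). Within the 7 genes, Il6ra and Stat3 were the most alike (r = 0.807 over 21 libraries).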

How the data were processed

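PolyA-enriched RNA of 21 libraries was sequenced from a stranded mRNA kit, per the labels. The authors deposited expected counts per gene from RSEM, with no scaling between libraries, and TPM, which corrects for transcript length and gives each library the same sum. Trim Galore, STAR 2.7.1a, GATK 4.1.2.0, RSEM and build mm10 are named per the submitters' processing notes. The annotation release, the counting strand and the order of steps are not given in the sources used here. Positions came from GENCODE vM21, which held 99.29% of the gene identifiers with their version. Expected counts were rounded (1.28% of values were not whole within 1e-06), 92 spike-in entries with 0 reads were left out, and 0 value columns were unmapped.

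edgeR 4.0.16 in R 4.3.3 was used with TMM scaling, its filter on low counts by group and a robust two-sided quasi-likelihood test, in a model of 7 group means over all libraries (14 residual degrees of freedom). P-values were adjusted by Benjamini-Hochberg over the 15432 genes tested, with a threshold of 0.05. SE is the fold change divided by the square root of F. On simulated counts for ZBTB18 overexpression against the empty vector (15007 genes) the fit recovered 62.7% of 1.5-fold, 91% of 2-fold and 97% of 4-fold changes, and 1.76% of its calls were false. Limits for 0 reads are 3 counts over the group, and read ratios carry 95% conditional binomial intervals. Both cover counting error only, as the libraries carry no molecular identifiers.

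The 9 genes, the pathway and marker lists and the motifs were chosen with earlier results of these data known, and a list is described by counts without a set test. Named genes were all 9, Zbtb18 and Tgfbr2, then Osm, Il11ra1, Cntfr, Clcf1, Jak1, Jak2 and Tyk2, and in each comparison up to 3 called genes per list with the largest change. Up to 2 genes of like profile per tested gene had an official name and a mean of at least 5 CPM in some group, with a prior count of 2 on the log scale. Some genes the rule selects are not reported here. Blood and fibroblast marker lists are given in the report, the 8 endothelial markers summed to at most 3.35 TPM and the 7 lung epithelial markers to at most 1.39 TPM in any library. Same-numbered libraries deviated together in TGF-β1 against vehicle (r = 0.302, 0.141 and 0.351) and M11 against M12 (0.167, 0.292 and 0.166), and not throughout in the other 6 comparisons. Alternatives were DESeq2 1.42.0 as test or for size factors, limma-voom and limma 3.58.1 on log2(TPM + 1) and log2(TPM + 0.1), fits without a filter or requiring 1 CPM in 3 libraries, fits of only the 6 libraries compared, counts without Gm42418, the replicate number as a block, and each library left out. The FPKM table was not used.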

Additional observations from a re-analysis of the deposited data

Results flagged for a closer look

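The changes of 2 genes against the parental line differed between the metastasis lines when M11 was compared with M12 directly. For Il6ra the M11 change was 1.75 above that of M12 on the log2 scale (edgeR adjusted p = 2.06e-07), and all 3 M11 libraries lay above all 3 M12 libraries. For Lif the M11 change was lower, with a difference of -2.12 (adjusted p = 0.000732), and again no libraries overlapped. Over 16 alternatives the Il6ra difference ranged from 1.54 to 2.07 and the Lif difference from -2.88 to -1.05, all past the threshold. Both lines share the parental libraries. The fold change between the lines compares only M11 and M12 libraries, while its p-value rests on a spread estimated over all 21 libraries. The summed blood markers, mostly Cd68, were 29.5 to 100 TPM in M12 and 9.84 to 16.8 TPM in M11. The summed fibroblast markers, mostly Col3a1, were 71 to 130 TPM in M12 and 249 to 358 TPM in M11. Their part in these differences was not tested.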

How the results depend on the processing

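Of 896 values of the 7 tested genes under 16 alternatives, 815 kept direction and side of the threshold, 22 lost and 26 gained a call, and 33 changed sign. The cause of these changes was not tested, except that TPM lies higher against the parental line throughout, as given above. The replicate number as a block changed no call of the 7 genes; for example Lif was -2.10 between M11 and M12 with the block (edgeR adjusted p = 0.00252). All sign changes were of values without a call. For ZBTB18 overexpression against parental, Il11 (-0.002) became 0.003 with DESeq2, 0.002 with its size factors, 0.021 without Gm42418, and 0.045 and 0.074 on log2(TPM + 1) and log2(TPM + 0.1). On the same 2 scales Il6st (-0.035) became 0.315 and 0.342 and Lif (-0.408) 0.062 and 0.098. Osmr (0.039) became -0.014 under the 1 CPM filter. For vehicle against overexpression Il11 (-0.068) became 0.018 and 0.048 on the TPM scales, and for TGF-β1 Il6ra (-0.006) became 0.003 without Gm42418. For the empty vector against parental Il6ra (0.003) became -0.007 without a filter, -0.042 with 1 CPM and -0.025 in 6 libraries, and Socs3 (-0.181) 0.142 and 0.149 on the TPM scales. With a library left out, overexpression against parental ranged from -0.267 to 0.133 for Il11, -0.048 to 0.158 for Osmr and -0.10 to 0.054 for Il6st. TGF-β1 against vehicle ranged from -0.039 to 0.149 for Il6st and -0.059 to 0.053 for Il6ra. Il11 ranged from -0.199 to 0.201 for vehicle and -0.369 to 0.099 for M12, and Il6ra from -0.072 to 0.113 for the empty vector.

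Counts of the 7 genes (or 9 where Il6 or Lifr passed a filter) moved as follows. Genes higher with overexpression against the empty vector went from 2 to 1 and 0 on log2(TPM + 1) and log2(TPM + 0.1), and 1 to 2 with a library left out. Against parental the higher count of 1 became 2 without a filter and on both TPM scales, and the lower count of 1 became 2 without Gm42418 or a filter, and 1 to 2 with a library left out. With TGF-β1 the higher count of 0 became 1 without a filter and in 6 libraries. For vehicle the lower count of 0 became 1 with limma-voom, and 0 to 1 with a library left out. The higher count of 1 became 2 without a filter and 3 on both TPM scales in M11 (0 to 2 with a library left out), and 2 in all 3 settings in M12 (1 to 2). For the empty vector against parental the lower count of 1 became 2 without Gm42418 or a filter, 0 on both TPM scales and 1 to 3 with a library left out. Over all genes, TGF-β1 against vehicle had 194 higher and 101 lower, and 52 to 772 and 19 to 577 over the alternatives, both extremes being without vehicle replicate 2 and in 6 libraries. Other such counts that moved over 1.5 times were 2235 lower with overexpression against the empty vector (1422 on log2(TPM + 1)), 2730 and 2744 for M11 against M12 (1734 and 1763 in 6 libraries), and those against parental on the TPM scales (4911, 3081, 3890 and 4482 lower, with lowest values of 2185, 1282, 1560 and 1868). List counts moved over 1.5 times in 144 of 1024 cases.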

Other observations

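Jak2 and Tyk2 encode kinases that also serve gp130. Jak2 stood at 18.3 ± 2 CPM in the parental line, 25.2 ± 0.33 with the empty vector, 23 ± 0.83 with ZBTB18 overexpression, 16.8 ± 1.1 with iTGFBR2 and vehicle, 20.5 ± 0.63 with TGF-β1, 16.8 ± 1.3 in M11 and 24.8 ± 3.4 in M12 (SD, n = 3). M11 lay 0.56 below M12 for Jak2 on the log2 scale (edgeR adjusted p = 0.000177). Tyk2 group means ran from 19.6 ± 1.6 CPM in the parental line to 31.8 ± 2.8 with vehicle (SD, n = 3).

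Single libraries stood out for inflammatory genes. Parental replicate 1, which held 33 of the 51 parental Il6 reads, also had the most Icam1 (19.5 CPM against 12.9 and 9.34) of its group. Among M12 libraries, replicate 2 was highest for Lif (8.14 CPM against 4.93 and 2.56), Lcn2 (8.51 against 1.66 and 0.618), Icam1 (27 against 17.9 and 5.78) and Saa3 (2.56 against 0.565 and 0.309). Vehicle and TGF-β1 replicates 3 were the highest of their groups for Icam1, at 83.9 and 49.6 CPM, and for Saa3, at 6.48 and 5.94 CPM.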
